A study of Rattus norvegicus with 6 samples.

Results

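The enzymes described here break down amino acids, handle one-carbon units or make the small molecules that branch from these routes. They were a list of 49 genes chosen for their known function, and 47 of them had a probeset that was annotated with 1 gene symbol, among 14506 genes measured in this way. Aldh4a1 and Aldh7a1 had no such probeset and were not analysed here. Each of 6 Affymetrix rat gene arrays held the RNA of a glomerular preparation from adult male Sprague-Dawley rats, for which the labels name no agent or genotype. In 3 preparations, held back by a 90 µm sieve, capsulated glomeruli were enriched, with decapsulated ones still among them (PEC-enriched, since parietal epithelial cells, the PECs, line Bowman's capsule), and 3 of mainly decapsulated glomeruli came from a 75 µm sieve (PEC-deprived). Neither isolate is a pure cell population, and the study counted tubular fragments under the microscope in both kinds. Isolations were made from individual rats, with n = 3 animals in the methods, but whether each rat gave both fractions is not given in the sources used here, so that p-values measure the spread between these preparations.

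The kidney is, with the liver, a main site of amino acid breakdown in the body. The cells of the proximal tubule reabsorb filtered amino acids and oxidize or convert them in the cytosol, in peroxisomes and in mitochondria. Some of these enzymes, such as those of branched-chain amino acids, are housekeeping proteins of mitochondria in most cell types, whereas others, such as myo-inositol oxygenase and D-amino acid oxidase, are known chiefly from the proximal tubule or the liver.

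Nearly all of the enzymes had a higher mean in PEC-enriched than in PEC-deprived isolates. Of the 47 measured genes 46 did so, and Pipox was the exception. The share of all 29215 probesets, many without a gene symbol, was 41.8%. Of the 14506 genes, taken as the enzymes were, 6501 were higher. The median log2 fold change (PEC-enriched minus PEC-deprived, a difference of mean log2 values) was 0.54, against -0.02 over all genes. A value of 1 was exceeded by 7 enzymes, against 0.606% of all probesets and 140 of the 14506 genes. The 7 were Acmsd, Dao, Aadat, Miox, Agxt2, Hao2 and Hpd, while the lowest positive differences belonged to Bckdha, Glud1 and Dbt. Another 18 enzymes lay between 0.5 and 1 and 21 between 0 and 0.5.

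**Figure D1:**
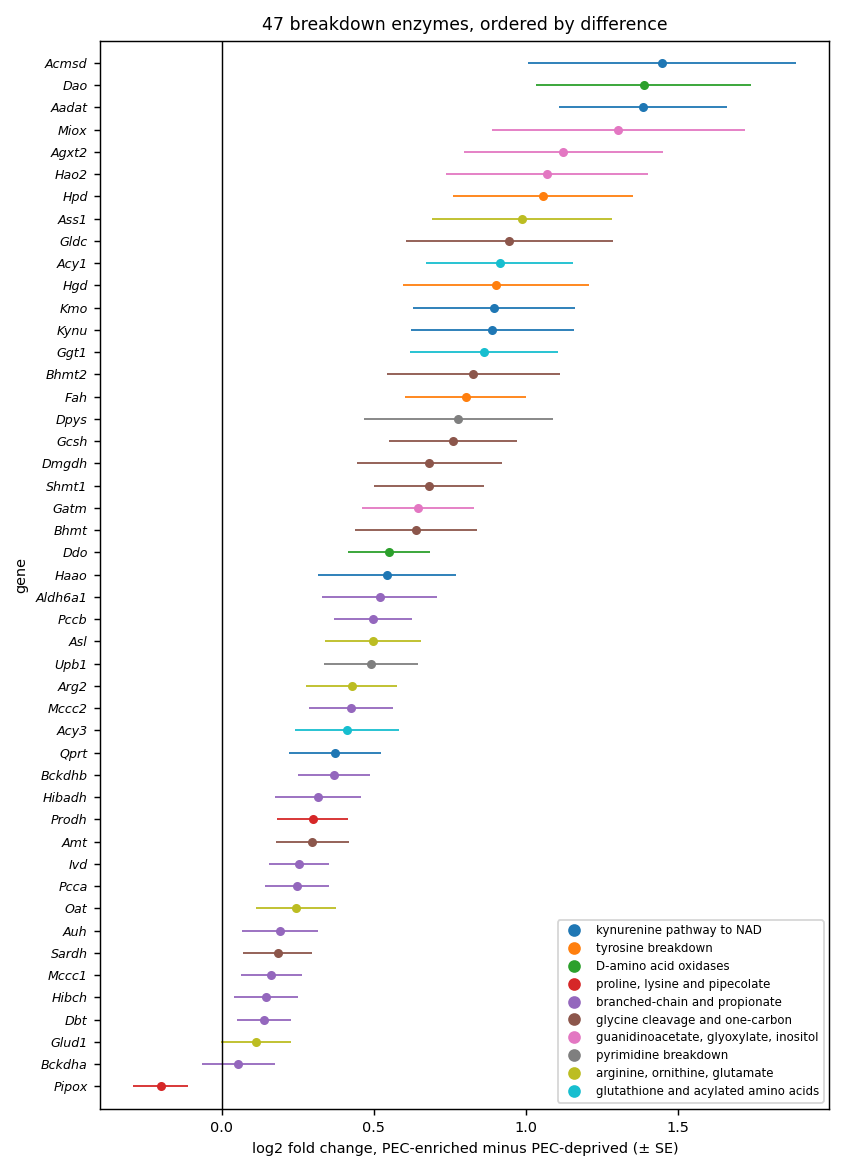
log2 fold change of each of the 47 enzymes (x axis, PEC-enriched minus PEC-deprived, n = 3 arrays each, bars are the standard error from limma), ordered by size and coloured by role. The values run from -0.20 for Pipox to 1.45 for Acmsd, and the 12 branched-chain and propionate enzymes lie at 0.52 or below.

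Calls of single enzymes at the methods' threshold, 0.01 after adjustment, depended on the test. With limma and Benjamini-Hochberg adjustment over all probesets 0 of the 47 did, the smallest adjusted p among them was 0.169 (Aadat), and no probeset of the whole table passed either (0%). At an unadjusted p under 0.05 there were 37 enzymes, all of them higher in PEC-enriched isolates. At this level 5.77% of all probesets and 1154 of the 14506 genes were higher. The count of enzymes fell to 22 without PEC-enriched replicate 2 (3.75% of all probesets) and to 24 without PEC-deprived replicate 2 (3.94%). It was 35 without PEC-deprived replicate 1 (5.84%) and 34 with the replicate number as a block (5.6%). A regularised Bayesian test, which follows the kind of test that the methods name and borrows variance from probesets of like level, called 10 of the enzymes and 0.965% of all probesets as higher. Those 10 were Aadat, Dao, Hpd, Agxt2, Acy1, Acmsd, Ass1, Hao2, Miox and Fah. All of them but Acy1 are also in the study's own list of genes that differ between these isolates. At prior weights of 6 and 3 in place of 10 the regularised test called 0 of the 47 enzymes (0.103% and 0% of all probesets). It called 2 where the variances of the neighbouring probesets were averaged in place of their standard deviations (0.39%). The calls of this test therefore rest on how the borrowed variance is formed and weighted. With single arrays left out the number of enzymes called moved together with the share of all probesets called as higher. It was 2 without PEC-enriched replicate 2 (0.452%), 2 without PEC-deprived replicate 2 (0.462%) and 3 without PEC-deprived replicate 3 (0.486%). It was 12 without PEC-enriched replicate 3 (1.14%), 16 without PEC-enriched replicate 1 (1.8%) and 22 without PEC-deprived replicate 1 (1.82%).

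On the arrays themselves, all PEC-enriched values lay above all PEC-deprived values in 32 enzymes. This pattern was found in 7.24% of all probesets and in 1404 of the 14506 genes. The opposite was seen in 1 enzyme, in 7.79% of all probesets and in 1306 of the genes. The groups overlapped in the other 14 enzymes, and in 7 of these only PEC-deprived replicate 1 reached into the PEC-enriched range. PEC-deprived replicate 1 was the highest of the PEC-deprived arrays in 39 of 47 enzymes, against 34.5% of all probesets, and in 35 enzymes the order from high to low was replicate 1, 3, 2, against 18.1%. Among the PEC-deprived preparations, the shares of tubular fragments and capsulated glomeruli that the study counted were highest in the preparation listed first. Its tubular share was above that of every PEC-enriched preparation, and the other PEC-deprived preparations held few or no fragments. Which preparation went to which array is not given in the sources used here, so a link with this order was not tested. Among the PEC-enriched arrays replicate 2 was the highest in 39. Without PEC-deprived replicate 1 the median log2 fold change was 0.70, and the enzymes varied more in PEC-deprived isolates, where the median SD over arrays was 0.307, than in PEC-enriched isolates, where it was 0.233.

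Markers of the nephron were higher on the same arrays. All 14 measured transport and brush border markers of the proximal tubule, such as Slc34a1 and Lrp2, were higher in the mean. The median log2 fold change was 1.04, and the groups overlapped in 7 of the 14, Slc34a1 among them. The summed level of all 14, on the linear scale, ran from 13978 to 21269.7 on PEC-enriched and from 6992.96 to 13405.6 on PEC-deprived arrays. The dimmest of the 14 had a mean level of 180.3. Markers of the last proximal segment had a median of 0.61 (5 of 6 higher) and those of the thick ascending limb 2.13 (6 of 6). Those of the distal and connecting tubule had 0.24 (4 of 5), of the collecting duct 0.58 (7 of 7) and of the parietal epithelium 1.42 (10 of 10). In the parietal list Pax8, Lad1, Cdh6, Prelp and Fras1 were candidates that the study picked as higher on these same arrays. The study's list of genes that differ on these arrays also holds Cldn1, Pax2, Krt8 and all 6 thick ascending limb markers. It holds some proximal, distal, collecting duct, endothelial and smooth muscle markers as well. The direction of all of these was therefore known beforehand. The study also saw protein of Fras1, Cdh6 and Pax8 in tubules. Podocyte markers, such as Podxl and Ptpro, had a median of -0.00325, with overlapping groups in all 7, and their summed level was 24152.8 to 30084.6 against 26755.6 to 28254.7. All 9 endothelial markers and all 7 leukocyte markers had lower means, with medians of -0.50 and -0.37, with overlapping groups in some of each list. The 7 mesangial and smooth muscle markers had a median of 0.02 but went both ways, with Myh11 at 0.83 and Tagln at 0.72, both without overlap, and Des at -0.34 without and Gata3 at -0.64 with overlap. The part of each cell type in the differences of the enzymes was not tested, and in such isolates more cells of a type and more RNA per cell cannot be told apart.

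The promoters of the enzymes were searched for the letters of transcription factor sites known from kidney and liver genes. RefSeq promoter windows (build GRCr8, 250 bases before to 50 bases after an annotated start) were at hand for 39 of the 47 enzymes. For Acmsd, Bhmt2, Dmgdh, Dpys, Arg2, Mccc2, Prodh and Bckdha there was no entry. A window's start can lie inside the full extent of its gene. For each enzyme a single window was kept, while shares of all windows counted every window, so these shares are not strictly alike. The letters CAAAGTCCA, a form of the site of the nuclear receptor HNF4, occurred on either strand in 3 of the 39 windows (Agxt2, Kmo and Pipox; 7.69%), compared with 0.391% of all 33469 windows. The annotated Kmo gene begins at 90089340 and the Pipox gene, on the minus strand, at 63281556. The HNF4 letters of Kmo and Pipox therefore lie inside these genes and not before their outermost start. GTTAAT, part of the site of HNF1, was found in 2 (Miox and Hpd; 5.13%), against 7.45% of all windows, and TATAAA, the TATA box, in 6 (15.4%), against 14.2%. A run of letters is a description of the window and not a measured site. The 5 promoters that hold the HNF4 or HNF1 letters are shown with these genes below, from 250 bases before the start up to the start, 5′ to 3′ on the strand of the gene, and capitals mark the motifs.

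The first enzymes take the tryptophan derivative kynurenine toward NAD. All 6 measured members were higher in the mean (median log2 fold change 0.89). The groups did not overlap in 5, as in 7.24% of all probesets in this direction. Acmsd, the decarboxylase that draws the pathway's intermediate away from NAD synthesis, had log2 expression of 9.06, 9.48 and 8.65 on PEC-enriched and 8.64, 6.67 and 7.55 on PEC-deprived arrays (replicates 1 to 3). The groups were separated by the narrow distance between PEC-enriched replicate 3 and PEC-deprived replicate 1. Its log2 fold change of 1.45, or 2.73-fold (adjusted p = 0.314 in limma, SE 0.442), was the highest of all 47, and without single arrays it ran from 0.97, without PEC-deprived replicate 2, to 1.96, without PEC-deprived replicate 1. Aadat, an aminotransferase of mitochondria that acts on kynurenine and on aminoadipate of lysine, stood at 7.31, 7.66 and 7.15 on PEC-enriched and 6.49, 5.33 and 6.14 on PEC-deprived arrays. Here every PEC-enriched array lay clearly above every PEC-deprived array, with a log2 fold change of 1.39 (adjusted p = 0.169 in limma, SE 0.275). The mean of Aadat over the 6 arrays lay just under the median of all probesets.

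Steps of this pathway differed in size. Kmo, the monooxygenase that commits kynurenine to the NAD branch, had a log2 fold change of 0.90 (SE 0.268), and Kynu, kynureninase, one of 0.89 (SE 0.268). Haao, the dioxygenase that makes the last intermediate before the branch, was higher by 0.54, with PEC-deprived replicate 1 (7.07) above PEC-enriched replicate 1 (6.94). At the branch itself Qprt, which takes quinolinate on to NAD, had a log2 fold change of 0.37, against the 1.45 of Acmsd on the other arm. Within each array, Acmsd minus Qprt was 1.97 ± 0.48 on PEC-enriched against 0.90 ± 0.715 on PEC-deprived arrays (mean ± SD over 3 arrays), and the groups overlapped in this difference. The Kmo promoter (chr13:90089271-90089520, plus strand) holds the HNF4 letters on the opposite strand, beginning at -74 from the start:
Kmo: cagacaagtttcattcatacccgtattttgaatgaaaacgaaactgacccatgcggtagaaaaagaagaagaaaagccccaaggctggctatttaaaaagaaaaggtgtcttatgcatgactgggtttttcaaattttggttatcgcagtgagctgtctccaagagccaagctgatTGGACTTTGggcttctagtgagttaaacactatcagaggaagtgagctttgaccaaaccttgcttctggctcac

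In tyrosine breakdown all 3 measured enzymes had a higher mean. Hpd, the dioxygenase that turns 4-hydroxyphenylpyruvate into homogentisate, had log2 expression of 10.17, 10.73 and 10.22 on PEC-enriched and 9.80, 8.60 and 9.54 on PEC-deprived arrays. No PEC-deprived array reached the PEC-enriched range, and the log2 fold change was 1.06, or 2.08-fold (adjusted p = 0.278 in limma, SE 0.296). Hgd, which opens the ring of homogentisate, had values of 8.32, 9.02 and 8.37 against 8.34, 7.14 and 7.51. Its groups overlapped through PEC-deprived replicate 1 alone, and its log2 fold change was 0.90 (adjusted p = 0.351 in limma, SE 0.306). Fah, the hydrolase of the last step, was higher by 0.80 (SE 0.199) without overlap. The Hpd promoter (chr12:39041996-39042245, plus strand) holds the HNF1 letters on the opposite strand, beginning at -154:
Hpd: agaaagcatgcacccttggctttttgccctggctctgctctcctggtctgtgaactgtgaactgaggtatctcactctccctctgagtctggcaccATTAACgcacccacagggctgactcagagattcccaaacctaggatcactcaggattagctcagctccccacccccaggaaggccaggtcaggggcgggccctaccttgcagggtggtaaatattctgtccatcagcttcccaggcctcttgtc

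D-amino acid oxidases are flavoenzymes of peroxisomes that clear D-amino acids. Dao, which acts on neutral D-amino acids, had log2 expression of 8.95, 9.43 and 9.04 on PEC-enriched and 8.47, 6.88 and 7.90 on PEC-deprived arrays, and the groups did not overlap. The log2 fold change was 1.39, or 2.62-fold (adjusted p = 0.232 in limma, SE 0.354). Ddo, its relative for acidic D-amino acids, read 5.77, 6.27 and 5.99 against 5.56, 5.39 and 5.43, likewise without overlap. Its log2 fold change was 0.55 (adjusted p = 0.221 in limma, SE 0.135), and its mean over the 6 arrays lay under the median of all probesets. Within an array Dao minus Ddo was 3.13 ± 0.0712 on PEC-enriched against 2.29 ± 0.728 on PEC-deprived arrays (mean ± SD over 3 arrays), without overlap.

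Guanidinoacetate, glyoxylate and inositol enzymes showed the highest class median, 1.10, with all 4 higher. Miox, myo-inositol oxygenase, had log2 expression of 9.65, 10.25 and 9.99 on PEC-enriched and 9.67, 7.76 and 8.55 on PEC-deprived arrays. PEC-deprived replicate 1 lay just above PEC-enriched replicate 1, so the groups overlapped in spite of a log2 fold change of 1.30 (adjusted p = 0.327 in limma, SE 0.417). Without that PEC-deprived array the difference was 1.81, and without PEC-deprived replicate 2 it was 0.85. Agxt2, a mitochondrial aminotransferase that uses glyoxylate, read 10.48, 10.62 and 9.9999 against 9.93, 8.52 and 9.28. These groups did not overlap, although PEC-enriched replicate 3 and PEC-deprived replicate 1 were close, and the log2 fold change was 1.12 (adjusted p = 0.294 in limma, SE 0.327). Hao2, a peroxisomal hydroxyacid oxidase, was higher by 1.07 (SE 0.332). Gatm, which makes guanidinoacetate for creatine synthesis, was higher by 0.65 (SE 0.184), and neither gene had overlapping groups. The promoters of Miox (chr7:122284410-122284659, plus strand; HNF1 letters on the opposite strand from -149, TATA box from -47) and of Agxt2 (chr2:61063166-61063415, plus strand; HNF4 letters from -48, TATA letters on the opposite strand from -104) read as follows:
Miox: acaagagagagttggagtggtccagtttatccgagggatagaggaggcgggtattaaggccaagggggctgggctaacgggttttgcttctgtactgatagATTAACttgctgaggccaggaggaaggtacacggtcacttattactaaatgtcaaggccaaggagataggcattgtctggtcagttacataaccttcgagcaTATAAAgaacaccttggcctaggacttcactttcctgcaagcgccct
Agxt2: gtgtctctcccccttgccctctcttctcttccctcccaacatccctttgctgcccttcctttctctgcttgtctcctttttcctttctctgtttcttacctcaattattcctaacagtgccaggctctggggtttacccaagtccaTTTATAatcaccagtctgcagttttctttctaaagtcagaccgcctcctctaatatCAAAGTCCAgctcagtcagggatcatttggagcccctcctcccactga

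**Figure D2:**
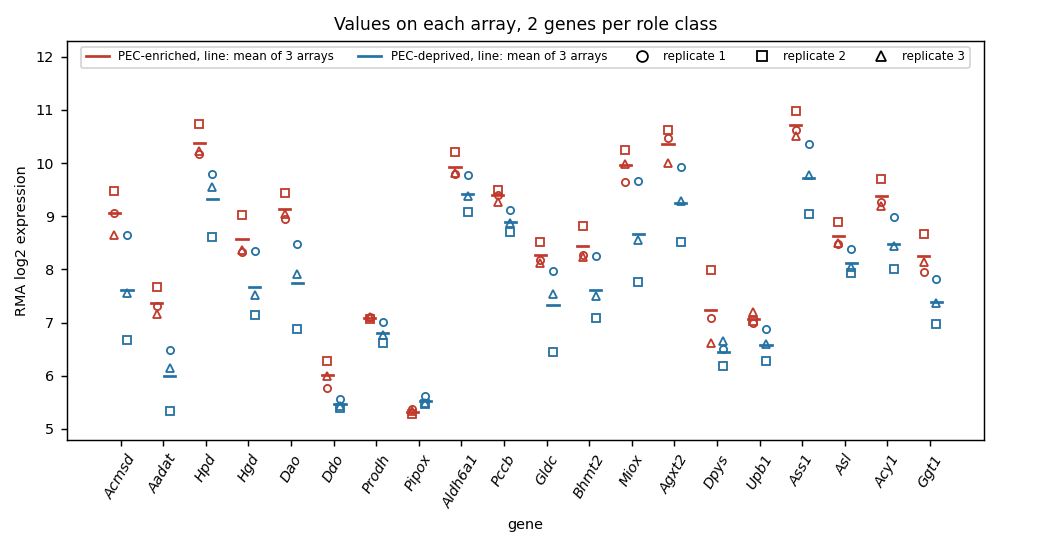
RMA log2 expression (y axis) on each array of the 2 genes per role class with the largest absolute difference (x axis), in PEC-enriched (left of each pair) and PEC-deprived isolates, with symbols for the replicates and a line at the mean of 3 arrays. PEC-deprived replicate 1 lies nearest to the PEC-enriched arrays in most genes, and for Pipox the 3 PEC-deprived arrays lie above the PEC-enriched ones.

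Glycine cleavage and one-carbon enzymes had a median log2 fold change of 0.68, with all 8 higher. The groups did not overlap in 5 of them, as in 7.24% of all probesets in this direction. Gldc, the decarboxylase of the glycine cleavage system, read 8.18, 8.51 and 8.12 on PEC-enriched and 7.98, 6.45 and 7.54 on PEC-deprived arrays. The groups did not overlap, PEC-deprived replicate 2 stood far below the other arrays, and the log2 fold change was 0.95 (adjusted p = 0.372 in limma, SE 0.34). Proteins of the same system differed in size: Gcsh, the lipoyl carrier, was higher by 0.76 (SE 0.211) and Amt, the aminomethyltransferase, by 0.30 (SE 0.119). A second, dimmer probeset of Amt gave 0.24 (SE 0.111). Within an array Gldc minus Amt was 0.18 ± 0.12 on PEC-enriched against -0.47 ± 0.794 on PEC-deprived arrays (mean ± SD over 3 arrays), without overlap but with PEC-enriched replicate 3 and PEC-deprived replicate 1 at 0.04 in both. Shmt1, the cytosolic serine hydroxymethyltransferase, was higher by 0.68 (SE 0.182).

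The betaine route and Bhmt2, a relative of its enzyme Bhmt, were among them. Bhmt2, a methyltransferase that regenerates methionine, had log2 expression of 8.27, 8.82 and 8.23 on PEC-enriched and 8.25, 7.09 and 7.50 on PEC-deprived arrays. PEC-deprived replicate 1 fell between the PEC-enriched arrays, and the log2 fold change was 0.83 (adjusted p = 0.357 in limma, SE 0.285). Bhmt, the betaine-homocysteine methyltransferase to which it is related, was higher by 0.64 (SE 0.2), and the change from group to group in Bhmt2 minus Bhmt was 0.19, with overlap. Whether probes of these related genes share targets is not given in the sources used here. Dmgdh, which follows Bhmt in the betaine route and is the direct neighbour of Bhmt2 in the RefSeq annotation of chromosome 2, was higher by 0.68 (SE 0.239). Sardh, sarcosine dehydrogenase of the following step, was higher by 0.18 (SE 0.113), and the groups of both genes overlapped.

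Branched-chain and propionate enzymes of mitochondria had small positive differences. All 12 had a higher mean, but the median log2 fold change was 0.25 and the values ran from 0.05 for Bckdha to 0.52 for Aldh6a1. Aldh6a1, the methylmalonate semialdehyde dehydrogenase of valine and thymine breakdown, read 9.80, 10.20 and 9.80 on PEC-enriched and 9.78, 9.08 and 9.38 on PEC-deprived arrays. The groups touched without overlapping (adjusted p = 0.376 in limma, SE 0.189). Pccb, the beta subunit of propionyl-CoA carboxylase, had values of 9.41, 9.498 and 9.27 against 9.12, 8.69 and 8.87, a clear separation with a log2 fold change of 0.50 (adjusted p = 0.235 in limma, SE 0.128). Its partner Pcca was higher by 0.25. The subunits of methylcrotonyl-CoA carboxylase, a step of leucine breakdown, were higher by 0.43 (Mccc2) and 0.16 (Mccc1). Of the branched-chain ketoacid dehydrogenase, Bckdhb was higher by 0.37, Dbt by 0.14 and Bckdha by 0.05, and the sign of Bckdha turned to -0.01 without PEC-deprived replicate 2. Ivd of leucine breakdown (0.26), Hibadh of valine breakdown (0.32), Auh (0.19) and Hibch (0.15) completed the class. In this class 6 of 12 had an unadjusted p under 0.05 and 8 of 12 had no overlap. Of all probesets 5.77% were higher at this p and 7.24% were higher without overlap.

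The gap between this class and others was measured on each array. The mean of the 6 kynurenine pathway genes minus that of the 12 branched-chain and propionate genes, each as a deviation from the gene's own mean over the arrays, was 0.29, 0.46 and 0.22 on PEC-enriched and 0.13, -0.84 and -0.26 on PEC-deprived arrays. Every PEC-enriched value was higher, with a change between groups of 0.65. For the guanidinoacetate, glyoxylate and inositol enzymes the change against the branched-chain class was 0.76 and for tyrosine breakdown 0.64, both without overlap, while for the arginine class it was 0.18 and for the glycine and one-carbon class 0.35, both with overlap. The class of proline, lysine and pipecolate went the other way, with a change of -0.23 and every PEC-enriched value lower. This class held only 2 measured genes, Prodh at 0.30 and the dim Pipox at -0.20, so the direction rests on Pipox. Other genes of this route that are not among the 47 had a median log2 fold change of 0.57, with 6 of 8 higher. For D-amino acid oxidases, glutathione and acylated amino acids, and pyrimidine breakdown the change against the branched-chain class was 0.69, 0.45 and 0.36, without overlap. By compartment, the 17 cytosolic enzymes had a median log2 fold change of 0.80 and 17 of them an unadjusted p under 0.05, the 25 mitochondrial enzymes a median of 0.32 and 16 of them such a p, and the 4 peroxisomal enzymes a median of 0.81. Of all probesets 5.77% were higher at such a p. The mitochondrial group holds all 12 branched-chain and propionate enzymes.

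**Figure D3:**
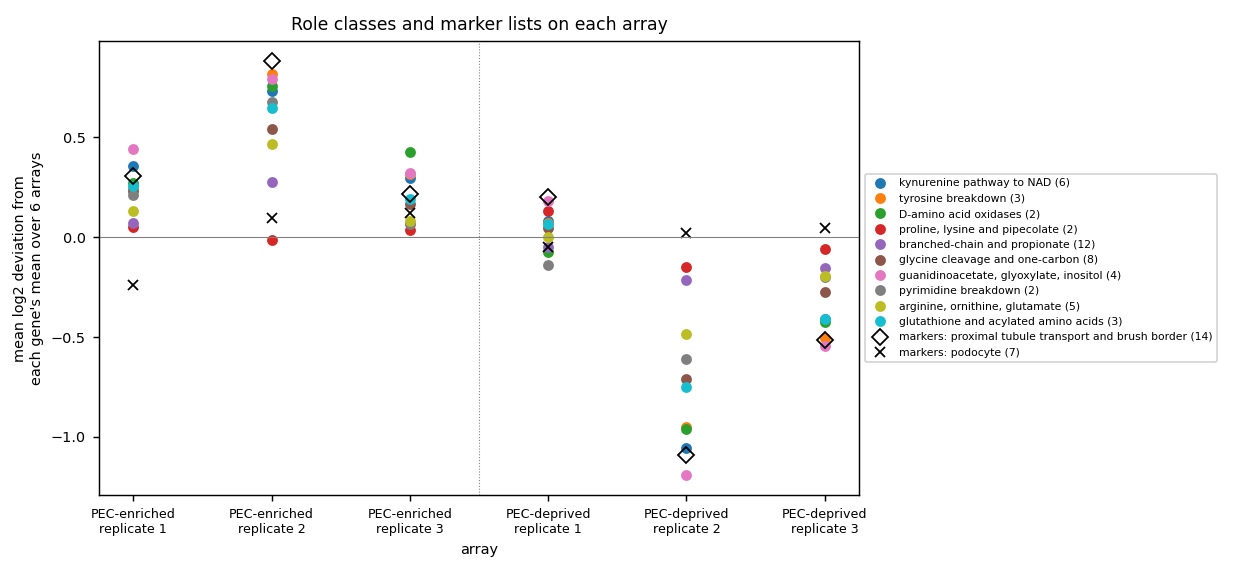
Mean log2 deviation of each role class and of proximal tubule and podocyte markers (y axis; each gene relative to its own mean over 6 arrays, number of genes in brackets) on each array (x axis). On PEC-deprived replicate 2 the classes spread from -1.19 to -0.15, proximal tubule markers stand at -1.09 and podocyte markers at 0.02, and on PEC-deprived replicate 1 most classes lie closest to the PEC-enriched arrays.

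Arginine, ornithine and glutamate enzymes split by gene. Ass1, argininosuccinate synthase, with which the proximal tubule makes arginine from citrulline, read 10.63, 10.99 and 10.51 on PEC-enriched and 10.35, 9.04 and 9.77 on PEC-deprived arrays. The groups did not overlap, and the log2 fold change was 0.99, or 1.98-fold (adjusted p = 0.306 in limma, SE 0.297). Asl, the lyase of the next step, had values of 8.48, 8.89 and 8.49 against 8.39, 7.94 and 8.04, also without overlap, and a log2 fold change of 0.50 (adjusted p = 0.325 in limma, SE 0.158). Ass1 minus Asl was 2.09 ± 0.0625 on PEC-enriched against 1.60 ± 0.448 on PEC-deprived arrays (mean ± SD over 3 arrays), without overlap. Arg2, the mitochondrial arginase, was higher by 0.43 (SE 0.151). Oat, ornithine aminotransferase, and Glud1, glutamate dehydrogenase, were higher by 0.24 and 0.11, and both had overlapping groups and an unadjusted p above 0.05.

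Enzymes of glutathione and acylated amino acids had a median of 0.86, with all 3 higher. Acy1, the aminoacylase that frees amino acids from their acetyl group, read 9.26, 9.71 and 9.19 on PEC-enriched and 8.98, 8.001 and 8.44 on PEC-deprived arrays. The groups did not overlap and the log2 fold change was 0.91 (adjusted p = 0.249 in limma, SE 0.242). Ggt1, the brush border enzyme that begins the breakdown of glutathione, had values of 7.96, 8.66 and 8.14 against 7.83, 6.97 and 7.38. This was again a separation of all arrays, by 0.86 on the log2 scale (adjusted p = 0.279 in limma, SE 0.243). Acy3, the aminoacylase of aromatic substrates and mercapturates, was higher by 0.41 with overlap through PEC-deprived replicate 1.

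Pyrimidine breakdown was represented by the enzymes that follow its first step. Dpys, dihydropyrimidinase, read 7.09, 7.99 and 6.61 on PEC-enriched and 6.51, 6.18 and 6.66 on PEC-deprived arrays. PEC-enriched replicate 2 stood apart from the other arrays, the groups overlapped, and the log2 fold change was 0.78 (adjusted p = 0.432 in limma, SE 0.311). It had the highest SD of all enzymes in PEC-enriched isolates, 0.698, and its difference was 0.40 without PEC-enriched replicate 2. Upb1, beta-ureidopropionase of the next step, read 6.999, 7.03 and 7.19 against 6.88, 6.27 and 6.60, with no overlap and a log2 fold change of 0.49 (adjusted p = 0.322 in limma, SE 0.154).

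The exception was in the class of proline, lysine and pipecolate. Pipox, the peroxisomal oxidase of pipecolate and sarcosine, had log2 expression of 5.37, 5.28 and 5.33 on PEC-enriched and 5.63, 5.46 and 5.49 on PEC-deprived arrays. All PEC-deprived arrays lay above all PEC-enriched arrays, with a log2 fold change of -0.20 (adjusted p = 0.506 in limma, SE 0.0905), and the sign was the same without each single array (-0.23 to -0.15). With Aadat, Kynu, Bhmt, Ddo and Arg2 it was one of 6 enzymes that had a mean under the median of all probesets, where signal over background is unknown. Prodh, proline dehydrogenase, read 7.11, 7.07 and 7.11 against 7.01, 6.61 and 6.77. Its arrays did not overlap, and its log2 fold change was 0.30 (adjusted p = 0.412 in limma, SE 0.116). The Pipox promoter (chr10:63280440-63280689, minus strand) holds the HNF4 letters on the opposite strand, from -71, as does that of Kmo, whose difference was positive:
Pipox: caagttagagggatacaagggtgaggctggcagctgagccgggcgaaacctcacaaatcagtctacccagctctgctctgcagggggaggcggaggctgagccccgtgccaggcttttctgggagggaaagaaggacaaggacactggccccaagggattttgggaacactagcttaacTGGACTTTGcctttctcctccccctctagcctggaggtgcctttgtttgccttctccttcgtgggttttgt

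Relative to the proximal tubule markers the enzymes fell on both sides. The mean of the 14 markers was 9.58, 10.15 and 9.49 on PEC-enriched and 9.47, 8.18 and 8.76 on PEC-deprived arrays, a difference of 0.94. After this mean was subtracted on each array, 9 of the 47 enzymes were higher on average in PEC-enriched isolates, compared with 0.729% of all probesets on this scale, and 38 were lower, with a median of -0.39 and a range from -1.14 (Pipox) to 0.51 (Acmsd). The groups did not overlap in 6 enzymes. All PEC-enriched arrays were higher in Dao (0.45), Aadat (0.45) and Hao2 (0.13), as in 0.195% of all probesets on this scale, and lower in Auh (-0.74), Sardh (-0.75) and Pipox (-1.14), as in 46% of all probesets. In the other 41 the arrays of the groups overlapped. The branched-chain and propionate enzymes all lay below 0 here, from -0.88 to -0.42, while Gldc, Acy1, Hgd, Kmo and Kynu lay within 0.05 of it. The subtraction takes 0.94 from every log2 fold change. Any gene under 0.94 must therefore fall below 0, as nearly all probesets do, and this is no trait of the branched-chain class.

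**Figure D4:**
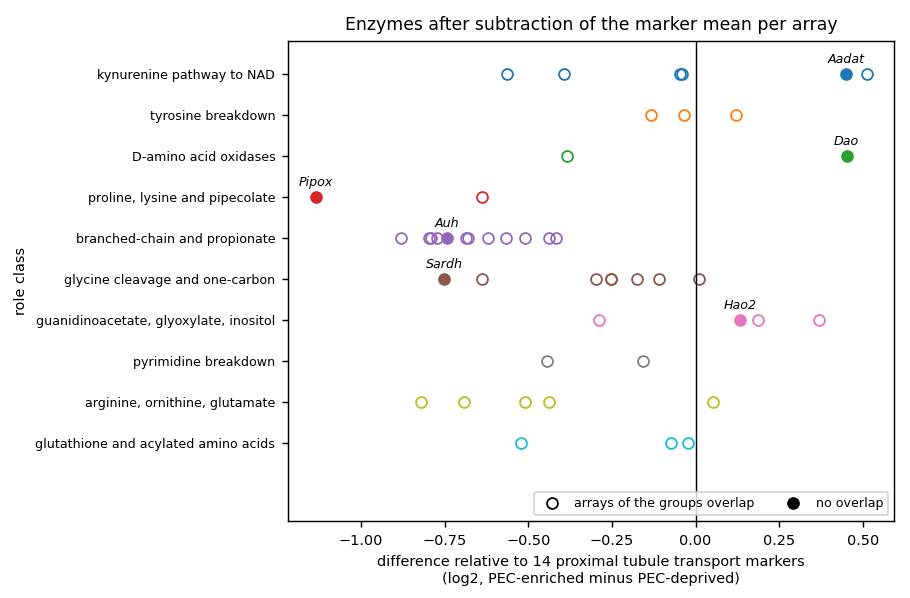
Difference between isolates after the mean of 14 proximal tubule markers was subtracted on each array (x axis, log2, PEC-enriched minus PEC-deprived), for each enzyme by role class (y axis). Filled points are the 6 enzymes whose groups of 3 arrays did not overlap, 3 of them higher and 3 lower. All branched-chain and propionate enzymes lie left of 0, as must any gene whose log2 fold change is under the 0.94 that is subtracted.

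Other genes of the same routes were measured as well. Of 86 genes listed for these pathways 72 had a probeset with 1 symbol, and 58 of them were higher in the mean. Their median log2 fold change was 0.20, lower than the 0.54 of the 47 enzymes. In limma 0 of the 72 reached the adjusted threshold. At an unadjusted p under 0.05, 33 were higher and 2 lower, against 5.77% and 4.66% of all probesets. The regularised Bayesian test, at the prior weight of 10, called 6, all of them higher, against 0.965% of all probesets called as higher. Its calls at other prior weights were not counted for these genes. The highest in the list were genes that conjugate or release amino acids at the proximal tubule. Glyat, which joins glycine to acyl groups, read 9.496, 9.89 and 9.20 on PEC-enriched and 8.999, 7.61 and 8.26 on PEC-deprived arrays (log2 fold change 1.24, adjusted p = 0.245 in limma, SE 0.325). Anpep, an aminopeptidase of the brush border, had 1.16 (adjusted p = 0.216 in limma, SE 0.278). The groups did not overlap in either gene.

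The remaining routes held fewer high values. Next to the tyrosine enzymes, Qdpr, which recycles the cofactor of phenylalanine hydroxylase, was at 0.40 and Tat, tyrosine aminotransferase, at 0.07. Kyat1, a kynurenine aminotransferase, was at 0.78 and Naprt, which makes NAD from nicotinic acid, at 0.62, whereas Nampt, which makes it from nicotinamide, was at -0.29, with PEC-deprived arrays all above. Aass, of lysine breakdown, was at 0.93 with overlap and Hykk, a hydroxylysine kinase, at 0.85 without. Cth and Cbs, the enzymes that turn homocysteine into cysteine, were at 0.91 and 0.85, both without overlap, and Grhpr, which reduces glyoxylate, at 0.95, while Hao1, the relative of Hao2 known from the liver, was at 0.21 with overlap. Dpyd, the first enzyme of pyrimidine breakdown, was at 0.39. Abat, the GABA aminotransferase, was at 0.61 and Got1, an aspartate aminotransferase, at 0.48. Acat1 and Echs1 of the branched-chain route were at 0.51 and 0.39. Of the urea cycle genes known from the liver, Otc, Cps1 and Arg1 were at 0.01, -0.06 and 0.06, all with overlap. Nampt and the urea cycle genes were named after their values were seen.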

How the data were processed

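Glomerular RNA from 6 preparations was hybridized to 1 array each. The authors used RMA, also named by the submitters' processing notes, for background adjustment, quantile normalization and summarization. The deposited values were read as log2 expression, the scale RMA returns (2.13 to 13.87), although the base is not stated for the table. For the RMA software, its version and the definition of probesets: not given in the sources used here. Quantile normalization gives every array the same distribution, so differences are relative to the other genes of an array. The arrays correlated at 0.9816 to 0.9937, and no 2 were identical. No detection calls were used, and the number of arrays limits the precision.

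Groups were taken from the sample titles. Symbols came from the platform annotation, updated through Entrez IDs to RefSeq symbols (GRCr8, names only). Of 29215 probesets 15310 had 1 symbol. A gene was its brightest such probeset over the 6 arrays. All probesets were tested with limma 3.58.1 in R 4.3.3 (two-sided, no covariate, Benjamini-Hochberg adjustment, threshold 0.01), after checks on simulated data. The regularised Bayesian test of the alternatives averaged each group's standard deviation over a window of 101 probesets of like level and gave it a prior weight of 10. Its weights of 6 and 3, the averaging of variances and the repeats without single arrays were chosen after seeing the data. Values on every array are given for the 2 genes of each role class with the largest absolute difference and for genes with a lower mean. Of other pathway genes the 2 with the largest difference per class are named. The members and lists were chosen with earlier results of these data known. Proteins were not analysed here. Figures were drawn with matplotlib 3.10.9.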

Additional observations from a re-analysis of the deposited data

How the results depend on the processing

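For the 47 enzymes, 0 passed limma's adjusted p under 0.01 in the fit given, with the replicate number as a block, with an intensity trend, with only probesets above the median level (41 enzymes tested) or with 1 symbol, after cyclic loess or median centring, with the mean of a gene's probesets, at a threshold of 0.05 and without each array. The regularised Bayesian test called 10, at prior weights of 6 and 3 it called 0 and 0 (32 and 0 of all probesets, against 334), with averaged window variances 2 (119), and without single arrays between 2 and 22 (147 to 957), with 16 without PEC-enriched replicate 1. The number at an unadjusted p under 0.05 was 37, ran from 22 to 35 without single arrays and from 32 to 38 under the other alternatives. The median log2 fold change ran from 0.40 to 0.70 without single arrays, and from 0.52 to 0.55 otherwise. Between 45 and 46 enzymes had a higher mean in all settings that tested all 47. For the 20 enzymes given in full, 269 of 277 alternatives kept direction and side of the threshold, and 8 passed it, all under the regularised Bayesian test. Same-numbered arrays were not treated as pairs in the fit given. Deviations from the group means of same-numbered arrays correlated at -0.0287, 0.0519 and 0.1, against -0.135 to 0.0827 for arrays of different numbers. Correlations of so few arrays cannot decide whether the arrays share a rat. With the replicate block 34 enzymes had an unadjusted p under 0.05.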
